A study of Mus musculus with 4 samples.

Results

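The 9 heat-shock chaperone genes described here were followed through the colonic monocytes and macrophages of chow-fed and HFD-fed mice. They were named by symbol and taken as the rows of the UMI matrix with those symbols, and all 9 were found among 11820 genes. The 5 inducible members are Hspa1a, Hspa1b, Dnajb1, Hsph1 and Hsp90aa1, while Hspa8, Hsp90ab1 and Dnaja1 are constitutive partners in the cytosol and Hspa5 belongs to the endoplasmic reticulum. The cells came from male C57/Bl6N mice, 6 to 7 weeks old when feeding began, which received normal chow (replicates 9 and 11) or a coconut-based HFD labelled 60% (replicates 1 and 3) for 1 week. Lamina propria cells were sorted as live CD45+Lin-CD11b+CD24- cells with Ly6C or CD64 on their surface, and each mouse filled 1 well of a 10x Genomics 3′ run. No transgene or Cre line was involved, and the sort leaves other cell types of the colon unmeasured.

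Heat-shock chaperones bind unfolded or partly folded proteins. Hsp70 proteins hold exposed hydrophobic stretches in cycles of ATP hydrolysis, J-domain proteins such as Dnajb1 and Dnaja1 bring them their clients, Hsp110 (Hsph1) exchanges their nucleotide, and Hsp90 completes the folding of kinases and receptors. Heat, oxidants and protein damage free the transcription factor Hsf1, which binds heat-shock elements made of nGAAn units and drives the inducible members. Hspa5 (BiP) answers instead to unfolded proteins in the endoplasmic reticulum, through the unfolded protein response. Intestinal macrophages are renewed from blood monocytes, which lose Ly6c2 and gain first MHC II and then the complement C1q genes. Inducible chaperones are also known to be transcribed during enzymatic digestion of tissue at body temperature, and the lamina propria was digested with collagenase before these cells were sorted.

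The sequences around the 5′ ends of these genes were searched for these control elements. RefSeq promoter sequences (GRCm38.p6) were found for 6 of the 9 members, and Hsp90aa1, Hspa8 and Hsp90ab1 were not among them. The 250 bases upstream of the RefSeq start nearest to the 5′ end in the GENCODE M21 annotation were searched for 2 adjoining heat-shock units, GAANNTTC or TTCNNGAA, each of which reads the same on both strands and may overlap the other, and for the endoplasmic reticulum stress element, CCAAT and CCACG separated by 9 bases, on both strands. The 4 genes below whose diet effect in resident cells passed the test are printed with Hspa1b, the near copy of Hspa1a, as the 160 bases before that RefSeq start, 5′ to 3′ on the coding strand, with any match in capitals.
Hspa1a: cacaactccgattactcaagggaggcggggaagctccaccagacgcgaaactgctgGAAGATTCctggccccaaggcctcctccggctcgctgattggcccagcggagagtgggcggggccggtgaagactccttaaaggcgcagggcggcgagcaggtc
Hspa1b: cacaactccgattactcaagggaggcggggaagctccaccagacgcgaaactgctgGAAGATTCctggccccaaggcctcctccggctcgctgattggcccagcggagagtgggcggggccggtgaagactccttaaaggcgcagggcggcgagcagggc
Dnajb1: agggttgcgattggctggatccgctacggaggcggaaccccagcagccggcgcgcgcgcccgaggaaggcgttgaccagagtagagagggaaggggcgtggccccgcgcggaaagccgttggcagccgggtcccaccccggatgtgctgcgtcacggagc
Dnaja1: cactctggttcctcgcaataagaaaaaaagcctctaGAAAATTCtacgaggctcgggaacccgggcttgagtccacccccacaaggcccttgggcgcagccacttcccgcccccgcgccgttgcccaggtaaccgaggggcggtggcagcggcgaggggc
Hspa5: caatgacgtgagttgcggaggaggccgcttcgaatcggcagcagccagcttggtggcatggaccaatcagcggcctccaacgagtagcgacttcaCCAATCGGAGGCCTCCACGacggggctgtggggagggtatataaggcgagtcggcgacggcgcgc

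These stretches lie at chr17:34972157-34972316 on the minus strand for Hspa1a, chr17:34959239-34959398 on the minus strand for Hspa1b, chr8:83608015-83608174 on the plus strand for Dnajb1, chr4:40722308-40722467 on the plus strand for Dnaja1 and chr2:34771930-34772089 on the plus strand for Hspa5. The RefSeq and GENCODE starts were the same for Hspa1a and Hspa1b, and the RefSeq start of Dnajb1 lay 18 bases upstream of the GENCODE one. For 3 members the RefSeq start lay inside the gene as GENCODE draws it, by 40 bases for Hsph1, 120 for Hspa5 and 318 for Dnaja1, so the whole Dnaja1 stretch and 120 of the 160 bases for Hspa5 are within those genes and not in front of them. Hspa1a and Hspa1b shared 159 of these 160 bases, and both held GAAGATTC beginning 104 bases before the start. Dnaja1 held GAAAATTC beginning 124 bases before its RefSeq start, which is 194 bases past the GENCODE 5′ end. Hsph1 (not printed) held the other form, TTCTCGAA, 33 bases before its RefSeq start and 7 bases past the GENCODE 5′ end. Dnajb1 and Hspa5 held neither form of the paired unit. A paired unit was present in 12.8% of 32851 promoters of 250 bases, so its presence is common, while 3 units in a row were found in 0.466% of promoters and in none of the 6 members. Hspa5 alone of the 6 held the endoplasmic reticulum stress element, 65 bases before its RefSeq start and 55 bases past the GENCODE 5′ end, an arrangement seen in 0.113% of promoters. A match describes letters in this window and not the binding of a factor.

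In the GENCODE M21 annotation of GRCm38, the minus strand holds Hspa1a (ENSMUSG00000091971) at chr17:34969190-34972156, Hspa1b (ENSMUSG00000090877) at chr17:34956436-34959238, Hsp90ab1 (ENSMUSG00000023944) at chr17:45567775-45573271, Hsph1 (ENSMUSG00000029657) at chr5:149614287-149636376 and Hsp90aa1 (ENSMUSG00000021270) at chr12:110690605-110702728. The plus strand holds Hspa8 (ENSMUSG00000015656) at chr9:40800984-40810087, Dnajb1 (ENSMUSG00000005483) at chr8:83608193-83612653, Dnaja1 (ENSMUSG00000028410) at chr4:40722150-40737149 and Hspa5 (ENSMUSG00000026864) at chr2:34771970-34777547. Hspa1a and Hspa1b are thus neighbours on chromosome 17. Some members cannot be counted with equal certainty. In the last 500 bases of their transcripts, where 3′ reads fall, Hspa1a, Dnajb1, Hsph1 and Hspa5 shared no stretch of 31 bases with the transcripts of any other gene. Hspa1b shared 2.15% of such stretches, most of them with Hacd4. Hsp90ab1 shared 9.67%, Hsp90aa1 28.3%, Dnaja1 41.4% and Hspa8 73.4%. For these genes most were shared with the Gm series, such as Gm15459 for Hspa8 and Gm7816 for Dnaja1. How UMIs matching several genes were treated is not given in the sources used here, so levels of Hspa8, Dnaja1 and Hsp90aa1 are uncertain.

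The matrix held 5420 cells, 904 and 2002 from the chow mice and 966 and 1548 from the HFD mice, with 3832283 to 7947893 UMIs per mouse. Cells were placed in stages that were chosen by their measured Ly6c2, MHC II and C1q UMIs and by none of the 9 genes. Cells with at least 40 C1qa, C1qb and C1qc UMIs per 10000 were called resident. Among the others, cells with Ly6c2 were called monocytes below 200 MHC II UMIs per 10000 and transitional above it, and MHC II-high cells without Ly6c2 were called intermediate. The names stand for these gates alone, and the chow monocytes also held many transcripts of plasma cells, given below. Resident cells numbered 755 and 1823 on chow and 417 and 600 on HFD, monocytes 66 and 75 against 284 and 328, intermediate cells 33 and 40 against 120 and 194, and transitional cells 3 and 21 against 104 and 362. With 3 cells in chow replicate 9, the transitional stage was not tested. In all, 23 barcodes occurred in more than 1 library, and a caller of doublets marked 38 cells (0.701%).

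Levels are given as CPM, the UMIs of a gene per 1000000 UMIs summed over the cells of a mouse and stage. They are not divided by transcript length, so they compare a gene with itself and not with another gene. The stages were cut from measured genes, so the levels across them are described without a test.

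**Figure D1:**
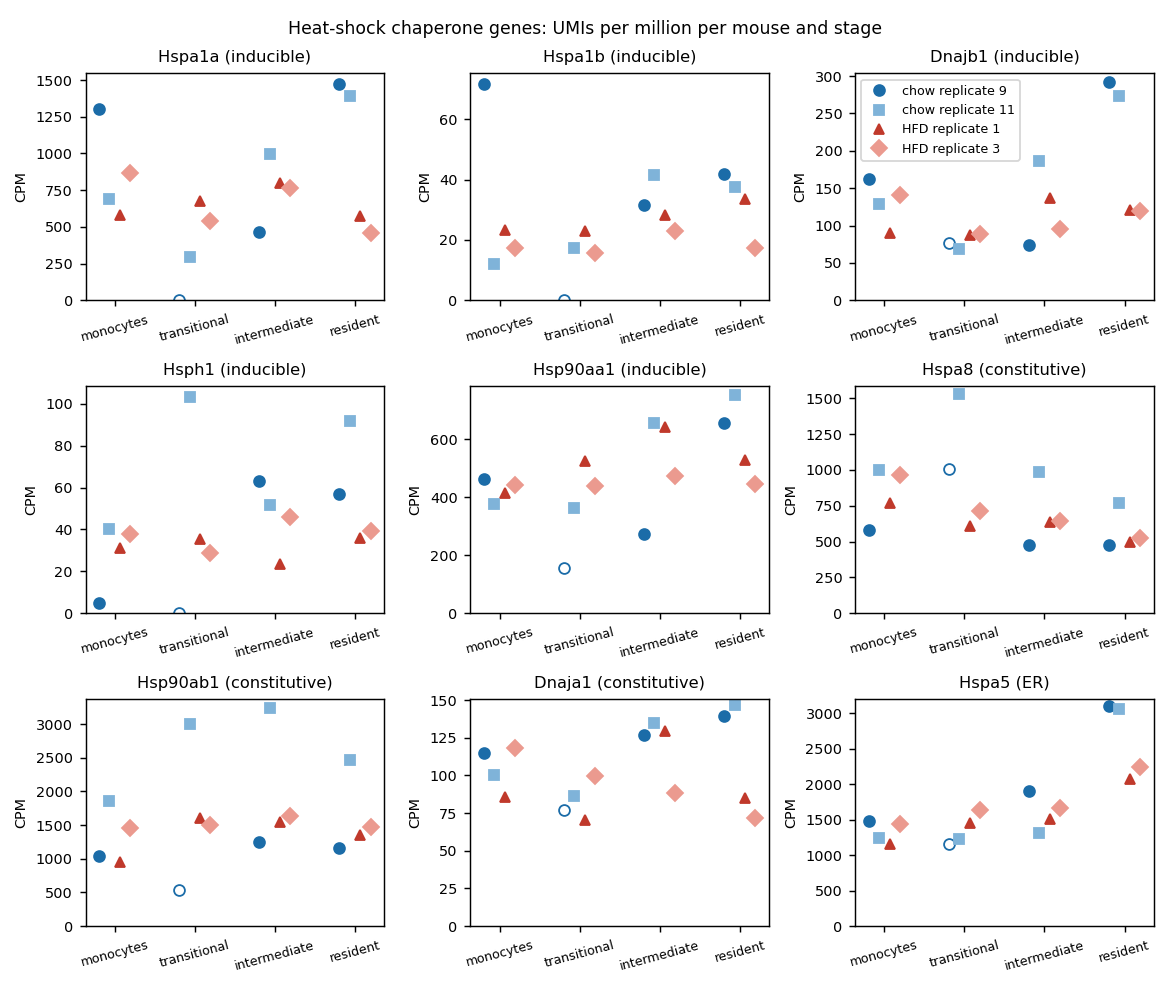
CPM (vertical axes, from 0) of each of the 9 genes in 4 stages (horizontal axes). Each point is 1 mouse, open where fewer than 20 cells were summed; Hspa5, Hspa1a and Dnajb1 were highest in the resident cells of the chow mice, and Hsp90ab1 was highest in chow replicate 11 at every stage.

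Hspa5 followed maturation most regularly. Its level in monocytes was 1478 and 1244 on chow against 1161 and 1438 CPM on HFD. In intermediate cells it was 1911 and 1318 against 1512 and 1670 CPM, and in resident cells 3107 and 3069 against 2080 and 2242 CPM. Resident cells lay above the monocytes of the same mouse in all 4 mice, and monocytes and intermediate cells overlapped between mice.

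Hspa1a, an inducible Hsp70 gene, followed another course in each diet. Monocytes held 1301 and 690 on chow against 584 and 868.5 CPM on HFD. Intermediate cells held 464 and 996 against 797 and 765 CPM. Resident cells held 1473 and 1393 CPM on chow but 571 and 455.5 CPM on HFD. Resident cells were thus the highest stage in each chow mouse and the lowest of the 3 tested stages in each HFD mouse. The other tested stages overlapped between the diets. In HFD replicate 1 the gap between resident cells and monocytes was small (571 against 584 CPM). With the C1q cutoff at 80, Hspa1a was no longer lower in resident cells than in monocytes in both HFD mice. In the transitional cells, Hspa1a had 0 UMIs in the 3 cells of chow replicate 9, where 3 UMIs would correspond to 231 CPM, and stood at 293, 676 and 538 CPM in chow replicate 11 and HFD replicates 1 and 3.

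Dnajb1, the J-domain partner that Hsf1 induces, had 163 and 128 CPM in the chow monocytes and 89.5 and 141 CPM in the HFD monocytes. In resident cells it had 293 and 274 on chow against 121 and 119 CPM on HFD. Dnaja1, a J-domain protein present without stress, ranged from 85.9 to 118 CPM over the monocytes of the 4 mice and had 139 and 147 CPM in chow resident cells against 85.0 and 71.9 CPM in HFD resident cells. For both genes the resident cells of the diets did not overlap, whereas the monocytes did.

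Hsph1 and Hspa1b were sparse. Hsph1 rested on 1 UMI in the monocytes of chow replicate 9 and on 10, 35 and 37 UMIs in the other mice. In resident cells it had 56.7 and 91.6 on chow against 36.1 and 39.4 CPM on HFD. Hspa1b had 41.7 and 37.4 CPM in chow resident cells and 33.8 and 17.2 CPM in HFD resident cells, and its monocyte level came from 15, 3, 26 and 17 UMIs. The diets did not overlap for either gene in resident cells, with a narrow gap for Hspa1b (37.4 against 33.8 CPM). The share of all genes without overlap was not counted here either.

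Hsp90aa1, the inducible cytosolic Hsp90, had 655 and 752 CPM in chow resident cells and 529 and 446 CPM in HFD resident cells, with 377 to 464 CPM over all monocytes. Hsp90ab1, its constitutive counterpart, had 1154 and 2470 CPM in chow resident cells and 1345 and 1471 CPM in HFD resident cells. Chow replicate 11 had the highest Hsp90ab1 level in every stage, with 1854 CPM in monocytes and 3237 CPM in intermediate cells, and both HFD mice lay between the chow mice in resident cells. Hspa8, the constitutive Hsp70 that also uncoats clathrin vesicles, showed the same order of libraries, with 472 and 772 CPM in chow and 494 and 526 CPM in HFD resident cells. It was the only member lower in resident cells than in monocytes in all 4 mice, at 584 and 999 CPM in chow monocytes and 769 and 961 CPM in HFD monocytes.

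In intermediate cells the chow mice spread more widely than the HFD mice for most of these genes. Dnajb1 had 73.9 and 187 on chow against 136 and 95.01 CPM on HFD, Hsp90aa1 274 and 654 against 640 and 473 CPM, and Hspa8 475 and 986 against 640 and 646 CPM. The chow values rested on 7 and 18 UMIs of Dnajb1, 26 and 63 of Hsp90aa1 and 45 and 95 of Hspa8. In transitional cells of chow replicate 11 and HFD replicates 1 and 3, Dnajb1 had 68.9, 87.1 and 88.8 CPM and Hsp90ab1 2995, 1599 and 1499 CPM.

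Across the members, 7 of 9 were higher in resident cells than in monocytes in both chow mice and 4 of 9 in both HFD mice. The share of all genes with this order was not counted, so these counts do not set the members apart from other genes. The 4 on HFD were Hsph1, Hsp90aa1, Hsp90ab1 and Hspa5, while Hspa1a, Hspa8 and Dnaja1 were lower in resident cells in both HFD mice. With other MHC II or C1q cutoffs the chow count stayed at 7 and the HFD count lay between 3 and 5. Hspa8 was lower in resident cells of both HFD mice with every cutoff. Hspa1a and Dnaja1 were not with the C1q cutoff at 80, nor was Dnaja1 with the MHC II cutoff at 400.

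The diets were compared on UMIs summed per mouse within a stage, with edgeR's quasi-likelihood test over all genes at an FDR of 1%. Each diet had 2 mice, and the test takes the spread of a gene partly from these mice and partly from the other genes. The weight of the other genes, as median prior degrees of freedom, was 6.7 in resident cells, 12.2 in monocytes and 9.0 in intermediate cells. It was 4.5 over all cells and 20.3 for the difference in diet effect between monocytes and resident cells. The adjusted p-values thus do not rest on the spread between these mice alone. In resident cells all 9 members had a negative log2 fold change (HFD against chow), and 4 of them fell at the FDR of 1%, with a median of -0.81 over the members against -0.02 over all 5093 genes tested. Of those 5093 genes, 2648 had a negative log2 fold change. In the same test 10.1% of genes were called and 4.97% were called lower on HFD.

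**Figure D2:**
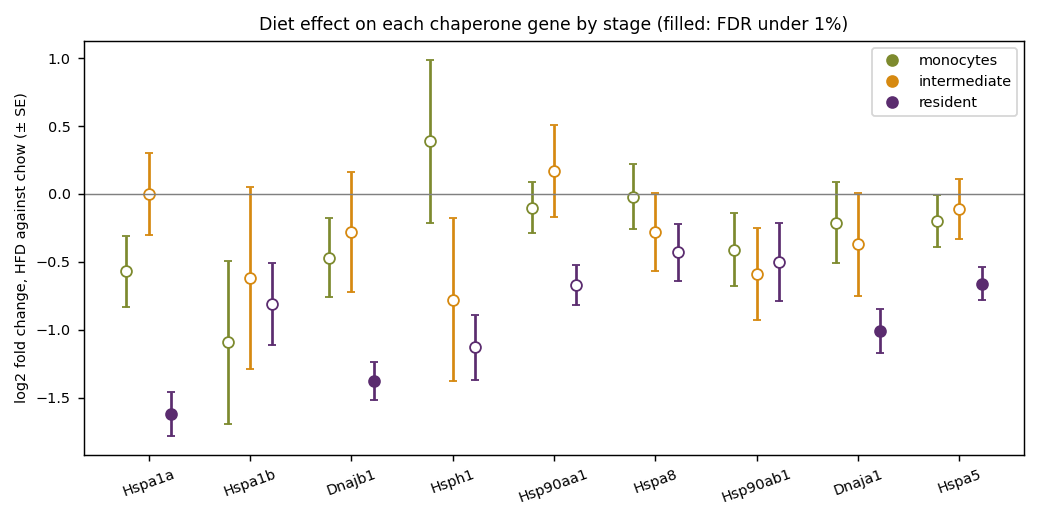
Log2 fold change of HFD against chow (vertical axis) with its standard error for each of the 9 genes (horizontal axis) in monocytes, intermediate cells and resident cells, 2 mice per diet. Filled points passed an FDR of 1%; these are Hspa1a, Dnajb1, Dnaja1 and Hspa5 in resident cells.

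Hspa1a fell most among the members, by 1.62 on the log2 scale (SE 0.16, adjusted p = 0.000287), from 1433 ± 56.3 CPM to 513 ± 81.7 CPM (SD, n = 2 mice each). Dnajb1 fell by 1.38 (SE 0.14, adjusted p = 0.000396), from 283 ± 13.2 to 120.0 ± 1.51 CPM (SD, n = 2). Dnaja1 fell by 1.01 (SE 0.16, adjusted p = 0.00288), from 143 ± 5.35 to 78.4 ± 9.25 CPM, and Hspa5 fell by 0.66 (SE 0.12, adjusted p = 0.00579), from 3088 ± 26.7 to 2161 ± 115 CPM (SD, n = 2). These 4 genes belong to all 3 classes, with 2 inducible members, 1 constitutive member and the endoplasmic reticulum member.

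The other 5 members did not pass. Hsph1 had a log2 fold change of -1.13 (SE 0.24, adjusted p = 0.012) and Hsp90aa1 one of -0.67 (SE 0.15, adjusted p = 0.0137), both close to the threshold. Hspa1b stood at -0.81 (SE 0.30, adjusted p = 0.0866), Hspa8 at -0.43 (SE 0.21, adjusted p = 0.18) and Hsp90ab1 at -0.50 (SE 0.29, adjusted p = 0.247). For Hsp90ab1 and Hspa8 the value moved with either chow mouse. Without chow replicate 11 the log2 fold change was 0.14 for Hsp90ab1 and -0.04 for Hspa8 (edgeR adjusted p = 0.61 and 0.914), and without chow replicate 9 it was -0.95 and -0.73 (edgeR adjusted p = 0.000243 and 0.00283). Hsph1 was called at -1.41 without chow replicate 9 (edgeR adjusted p = 8.32e-05) and stood at -0.73 without chow replicate 11 (adjusted p = 0.0333). Hspa1b moved with the HFD mice instead, to -1.37 without HFD replicate 1 and -0.34 without HFD replicate 3 (edgeR adjusted p = 0.0293 and 0.466).

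The calls in resident cells depended on the HFD mice. Without HFD replicate 3 no member remained called, although the log2 fold change of Hspa1a was still -1.45. Without HFD replicate 1, Hspa1a and Dnajb1 were called. Without chow replicate 9, 8 members were called, and without chow replicate 11 the number was 4. The number of all genes called moved from 514 to 54 and 156 without HFD replicates 3 and 1.

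In monocytes none of the 9 members passed, in a comparison that called 0.747% of 4551 genes, and 1 had an unadjusted p under 0.05. That gene was Hspa1a, with a log2 fold change of -0.57 (SE 0.26, unadjusted p = 0.0426, adjusted p = 0.36). Its value moved with each mouse left out, to -0.09 without chow replicate 9, -0.31 without HFD replicate 1, -0.89 without HFD replicate 3 and -0.95 without chow replicate 11, where it was called (edgeR adjusted p = 0.000477). Without chow replicate 9, Hsp90ab1 was called instead, at -0.78 (edgeR adjusted p = 0.00613). DESeq2 called none of the 9 in monocytes either. In intermediate cells none passed, 0.812% of 4431 genes being called, none had an unadjusted p under 0.05 and DESeq2 called none. Without chow replicate 9, Hsp90ab1 was called there at -1.12 (edgeR adjusted p = 2.84e-06), against -0.59 with all mice and 0.25 without chow replicate 11. Hspa1a stood at 0.00 (SE 0.30) and Dnajb1 at -0.28 (SE 0.44) there. These stages held fewer cells. In counts simulated for each stage, 200 genes drawn at random from all those tested were changed up or down. Their spread was set by the trend over genes. A log2 change of 1 was recovered for 13.6% of changed genes in monocytes, 0% in intermediate cells and 60.9% in resident cells. For a change of 2 the shares were 77.4%, 45% and 99.2%. These shares are averages over genes of all levels and were not worked out for the members.

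Whether the diet effect differed between monocytes and resident cells was tested in 1 model with a term for each mouse. None of the 9 members passed at an FDR of 1%, 1.77% of 5037 genes being called, DESeq2 called none, and 7 had an unadjusted p under 0.05. How many of all genes had an unadjusted p under 0.05 was not counted. Hspa1a came closest, its log2 fold change in monocytes being 1.11 above that in resident cells (SE 0.26, adjusted p = 0.0157). Over the alternatives that kept all mice, its adjusted p ran from 5.47e-08 to 0.0605. It passed with the likelihood-ratio test, without the filter on low counts and with the MHC II cutoff at 400, and leaving out 1 mouse moved it from 8.71e-08 without HFD replicate 1 to 0.362 without chow replicate 11. Dnajb1 differed by 0.94 (SE 0.29, adjusted p = 0.0781). It passed at 1.33 without HFD replicate 1 (edgeR adjusted p = 0.00589) and at 1.10 without the filter on low counts (adjusted p = 0.00741), and without HFD replicate 3 it was 0.60 (adjusted p = 0.635). Over its alternatives that kept all mice, the adjusted p ran from 0.00741 to 0.333. Hspa1b differed by -0.24 (SE 0.59, adjusted p = 0.898). With the main test, a drop particular to resident cells was therefore not shown for any member.

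Summed over all cells of a mouse, 5 members were lower on HFD, namely Hspa1a, Dnajb1, Dnaja1, Hspa5 and Hsp90aa1, among 16.2% of 4955 genes called and 8.58% called lower. Resident cells made up 83.5% and 91.1% of the chow cells and 43.2% and 38.8% of the HFD cells, so these sums also carry the makeup of the sample. Hspa5 fell by 0.96 (SE 0.11) over all cells and by 0.66 within resident cells, while Hspa1a fell by 1.43 (SE 0.11) and 1.62.

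Resident cells were not alike in both diets. Their median C1q level was 190 and 199 UMIs per 10000 on chow and 158 and 126 on HFD, and Ly6c2 was detected in 21 and 69 chow cells and in 92 and 236 HFD cells. The 6 monocyte markers summed to 335 and 472 CPM in chow resident cells and to 2451 and 3225 CPM in HFD resident cells, and all 4 of those tested rose. The 3 C1q genes set the stage, so their values in this fit are not read as a diet effect. Besides them, the list of macrophage markers held 8 genes, and 6 of these were tested. Mrc1, Cx3cr1 and Adgre1 fell, with log2 fold changes of -2.02, -1.64 and -1.52 (edgeR adjusted p = 0.000802, 0.000527 and 0.000516), and the 8 summed to 2544 and 2788 on chow against 1531 and 1305 CPM on HFD. No other gene of these 6 was called. Csf1r had 866 and 901 on chow against 678 and 613 CPM on HFD. Fcgr1, which encodes CD64, lay the other way, with 140 and 199 on chow against 203 and 216 CPM on HFD. The 5 dendritic cell markers summed to 25.9 and 25.5 on chow against 137 and 133 CPM on HFD. The 1 of them tested, Ccr7, a chemokine receptor of migrating dendritic cells, rose by 3.16 (SE 0.20, edgeR adjusted p = 3.36e-05), while Flt3 and Zbtb46 stayed under 3 CPM in each mouse. The part of these markers in the chaperone levels was not tested. Without the cells holding Ly6c2, 369 genes were called in all, against 514 with them, and the 4 members remained called. Their log2 fold changes were -1.56 for Hspa1a, -1.33 for Dnajb1, -1.07 for Dnaja1 and -0.59 for Hspa5. With the C1q cutoff raised to 160, 97 genes were called in all. Hspa1a and Dnajb1 remained called at that cutoff, at -1.08 and -0.98. Dnaja1 stood there at -0.89 (edgeR adjusted p = 0.0186) and Hspa5 at -0.38 (adjusted p = 0.0988).

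Within the resident cells, Hspa1a lay higher on chow in each range of C1q. From 40 to 80 C1q UMIs per 10000 it had 689 and 1134 on chow against 518.5 and 244 CPM on HFD. From 80 to 160 it had 1767 and 1347 against 245 and 415 CPM, and above that 1415 and 1411 against 801 and 605 CPM. Hspa5 showed no gap in the lowest range, with 2510 and 2060 on chow against 2118 and 1977 CPM on HFD, but had 4105 and 3381 against 1716 and 2172 CPM in the middle range and 2819 and 3030 against 2300 and 2447 CPM in the highest. The lowest range rested on 35 and 66 chow cells and 85 and 165 HFD cells.

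**Figure D3:**
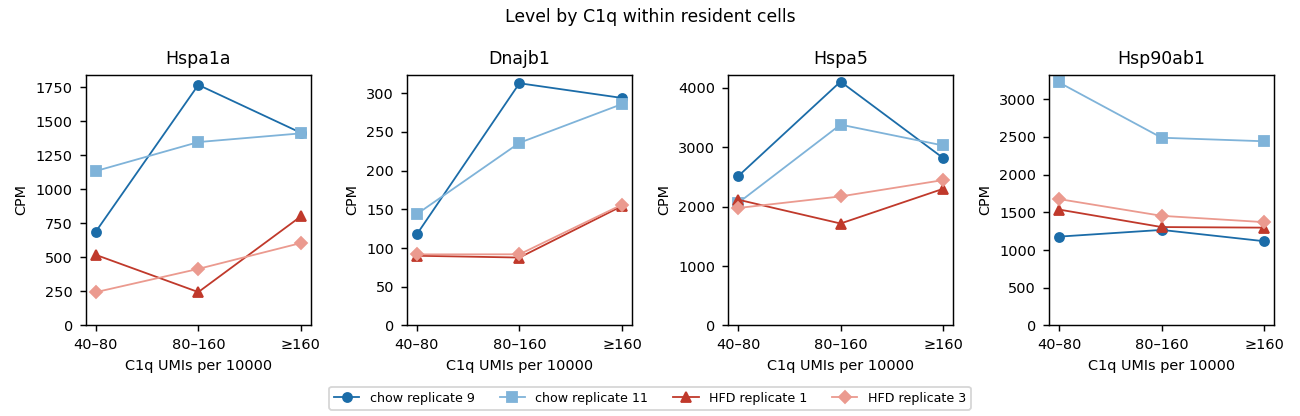
CPM (vertical axes, from 0) of Hspa1a, Dnajb1, Hspa5 and Hsp90ab1 in 3 ranges of C1q UMIs per 10000 within resident cells (horizontal axes), 1 line per mouse. Both chow lines lay above both HFD lines for Hspa1a and Dnajb1 in every range, and for Hsp90ab1 the chow mice stood on either side of the HFD mice.

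The same genes were then read in single cells. Cells with at least 2000 UMIs were thinned to 2000, which left out 70 and 303 chow and 73 and 91 HFD resident cells. Hspa1a was then detected in 57.2% and 54.1% of chow resident cells and in 32.6% and 28.7% of HFD resident cells, against 65.7%, 65.1%, 38.8% and 38.2% without thinning. Positive cells held on average 5.68 and 5.38 UMIs on chow and 3.64 and 3.25 on HFD, so both the share and the level among positive cells were lower on HFD. Hspa5 was detected in 91.4% and 94.2% of chow and 88.7% and 92.1% of HFD resident cells, shares that overlapped, while positive cells held 7.21 and 6.76 against 4.78 and 4.96 UMIs. No cell type that should lack these genes is among the sorted cells, so the share that free RNA could give was not measured.

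Cells were then selected on the summed UMIs of Hspa1a, Hspa1b, Dnajb1 and Hsph1, and a cell with at least 5 of 2000 was called high. High cells made up 24.1% (95% exact binomial interval 20.9 to 27.5%) and 25.1% (23.0 to 27.4%) of chow resident cells. On HFD they made up 7.27% (4.76 to 10.5%) and 7.47% (5.34 to 10.1%). The intervals cover counting error only, and a comparison of 2 with 2 mice cannot reach an exact p under 0.33. The mean share was 24.6% ± 0.738 on chow and 7.37% ± 0.14 on HFD (SD, n = 2), a difference of -17.2 percentage points. In monocytes the shares overlapped, with 16.4% and 13.04% on chow and 9.35% and 14.1% on HFD, and in intermediate cells they were 16.7% and 21.1% against 13.8% and 11.4%.

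**Figure D4:**
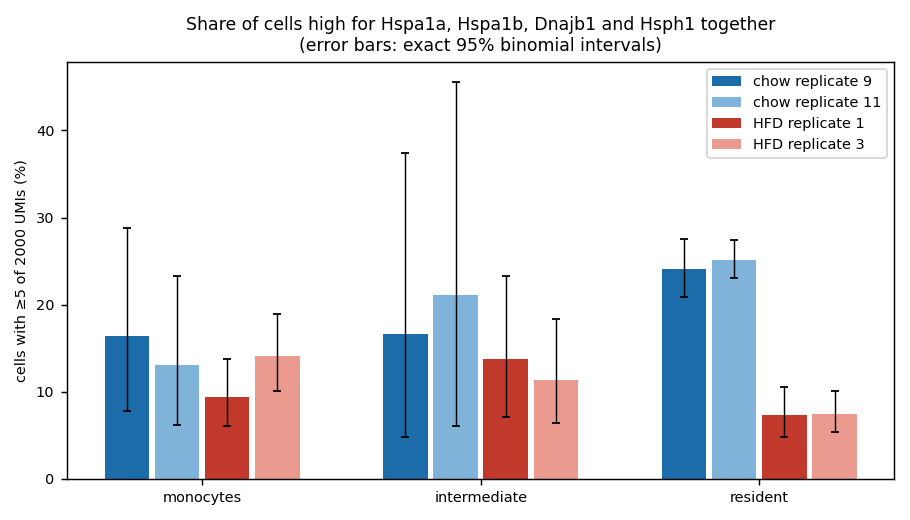
Share of cells (vertical axis, percent) with at least 5 UMIs of Hspa1a, Hspa1b, Dnajb1 and Hsph1 among 2000 thinned UMIs, by stage (horizontal axis), 1 bar per mouse with its exact 95% binomial interval. The resident cells of the chow mice stand at 24.1 and 25.1% and those of the HFD mice at 7.27 and 7.47%, while the intervals of the other stages overlap.

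High cells form a range and not a separate class. In resident cells, 34 and 78 chow cells and 14 and 13 HFD cells had 4 UMIs, just under the threshold, and 27, 60, 5 and 10 had exactly 5. Cells without any UMI of the 4 genes made up 34.7% and 36.0% on chow and 56.1% and 61.7% on HFD. At the upper end, at least 10 UMIs were found in 12.4% and 11.4% of chow cells and in 3.49% and 2.55% of HFD cells, and the highest cell of each mouse held 52, 59, 34 and 37 UMIs. The distribution was lower on HFD at each of these points, and high cells were present in every mouse.

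The inducible members were set against the constitutive members as the ratio of their summed UMIs, which is compared between samples only. In resident cells the ratio was 1.427 and 0.752 on chow and 0.671 and 0.520 on HFD. The inducible sum was 2519 and 2549 on chow against 1291 and 1077 CPM on HFD, whereas the constitutive sum was 1765 and 3388 on chow against 1924 and 2069 CPM on HFD. The chow mice therefore had near-equal inducible sums and differed in the constitutive sum, through Hsp90ab1 and Hspa8. The mean log2 ratio differed by -0.81 between diets, beside a pooled SD of 0.50 between mice. Without chow replicate 9 this difference was -0.35, and without chow replicate 11 it was -1.27. In monocytes the ratio was 1.151 and 0.423 on chow and 0.633 and 0.593 on HFD, and in intermediate cells 0.491 and 0.443 on chow and 0.703 and 0.593 on HFD, so the order of the diets in intermediate cells was the opposite of that in resident cells.

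Over single cells, the members were correlated after centring each mouse and stage. The cells of a mouse share a library, and sparse genes lower any correlation, so these values are a description. Hspa1a went most with Hsp90aa1, with a mean Pearson's r of 0.39 over 4 mice (0.44, 0.41, 0.38 and 0.32), then with Dnajb1 at 0.33 and Hspa1b at 0.27. Hsph1, also inducible, stood at 0.19 with Hspa1a, as did the constitutive Hspa8 and Hsp90ab1, and Dnaja1 at 0.16. Hspa5 reached 0.08 with Hspa1a and at most 0.05 with the other members.

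**Figure D5:**
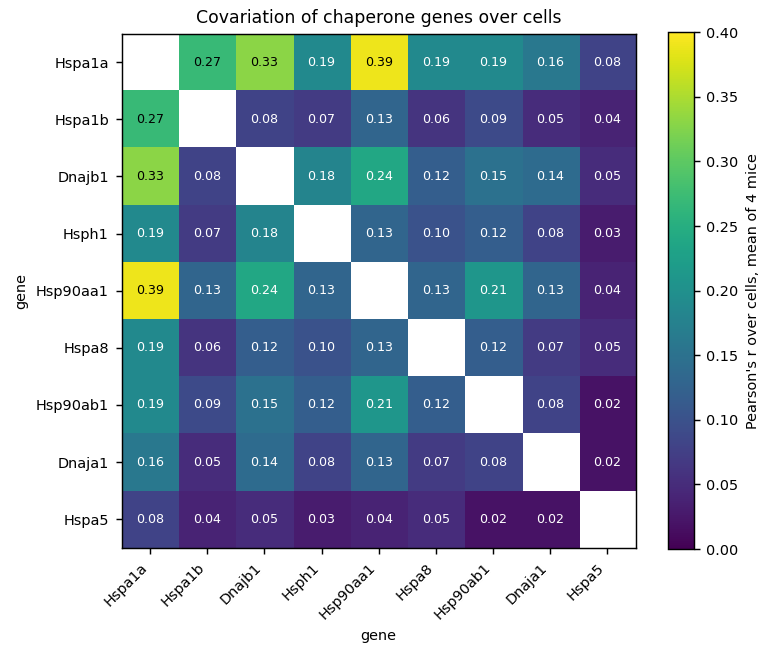
Mean over 4 mice of Pearson's r over cells between each pair of the 9 genes (rows and columns), colour from 0 to 0.40, on log2 of thinned UMIs plus 1 after centring each mouse and stage. Hspa1a with Hsp90aa1 is the highest pair at 0.39, and the Hspa5 row stays at or under 0.08.

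Among the 10 genes outside the members whose pattern was most like the sum of Hspa1a, Hspa1b, Dnajb1 and Hsph1 over cells were Jun (mean r 0.293), Fos (0.275), Btg2 (0.211), Atf3 (0.200), Hmox1 (0.200), Klf6 (0.198), Rgs2 (0.175), Klf2 (0.171) and Bag3 (0.159), of 4948 genes compared, whose median r was 0.001 and whose 99th percentile was 0.072. Jun, Fos, Atf3, Klf2 and Klf6 encode transcription factors of the immediate-early response, Hmox1 encodes heme oxygenase and Bag3 encodes a cochaperone of Hsp70. Among the members outside this sum, Hsp90aa1 had 0.387, Hsp90ab1 0.200, Hspa8 0.195, Dnaja1 0.169 and Hspa5 0.083.

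A list of 32 immediate-early genes known to rise during tissue digestion was read in the same fits. In resident cells 16 of the 32 fell on HFD and none rose, with a median log2 fold change of -0.81. Their summed level was 44340 and 42920 on chow against 27090 and 23260 CPM on HFD. Jun fell by 2.31 (SE 0.34, adjusted p = 0.00218), Atf3 by 1.92 (SE 0.19, adjusted p = 0.000304) and Fos by 1.09 (SE 0.13, adjusted p = 0.000864). Btg2, Cxcl2, Dusp1, Fosb, Junb, Klf2, Klf6, Nr4a1, Rhob, Socs3, Tnf and Zfp36 also fell by 0.69 to 1.61. The number of the list called depended on the HFD mice and on the C1q cutoff. It was 5 without HFD replicate 1 (Atf3, Cxcl2, Fos, Fosb and Nr4a1), 1 without HFD replicate 3 (Atf3) and 1 with the C1q cutoff at 160 (Atf3), with medians of -0.93, -0.65 and -0.46. At that cutoff Jun stood at -1.77, Fos at -0.74 and Klf6 at -0.54 (edgeR adjusted p = 0.0145, 0.0141 and 0.089). In monocytes none of the 31 tested was called, with a median of -0.33 against -0.02 over all genes tested. In intermediate cells 28 of the 31 tested had a negative log2 fold change and the median was -0.83, beside a median of -0.28 over the 9 members there. Over all 4431 genes tested there, 2155 were negative and the median was 0.02. Their summed level in those cells was 29010 and 30220 on chow against 21200 and 20630 CPM on HFD, and 1 gene was called, Cxcl2, which fell by 1.56 (SE 0.22, edgeR adjusted p = 0.00363). Of the list, 4 genes had a diet effect that differed between monocytes and resident cells at an FDR of 1%, namely Socs3, Atf3, Jun and Klf6, with differences of 1.78, 1.58, 1.25 and 1.03. The part of handling or digestion in the lower chaperone levels was not tested.

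Other chaperones were read in the same fit of resident cells. Of 51 other cytosolic chaperones and cochaperones tested, none was called and the median log2 fold change was 0.05. Closest were Fkbp4, a cochaperone of Hsp90, at -0.87 (SE 0.20, adjusted p = 0.0141), Dnajb4 at -0.67 (SE 0.22, adjusted p = 0.0605), Bag3 at -0.83 (SE 0.29, adjusted p = 0.0703) and Chordc1 at -0.89 (SE 0.31, adjusted p = 0.0709). None of 10 mitochondrial chaperones was called (median 0.15). Of 24 genes of endoplasmic reticulum folding and the unfolded protein response, 1 rose and 1 fell, with a median of -0.03. Herpud1, a component of endoplasmic reticulum-associated degradation, fell by 0.86 (SE 0.14, adjusted p = 0.00311), and Sec61b, a subunit of the protein-conducting channel, rose by 1.29 (SE 0.15, adjusted p = 0.00088). Herpud1 was no longer called without HFD replicate 1 (edgeR adjusted p = 0.0423), without HFD replicate 3 (adjusted p = 0.0508) or with the C1q cutoff at 160, where it stood at -0.48 (adjusted p = 0.0883). Sec61b was no longer called without HFD replicate 3 (edgeR adjusted p = 0.0264) or at that cutoff (adjusted p = 0.012).

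Signs of library quality are given beside these results. In resident cells the median was 4218 and 3904 UMIs per cell on chow and 3817 and 4218 on HFD, and the median mitochondrial share was 0.832% and 0.763% against 0.838% and 0.678%, values that overlap. Transcripts of plasma cells and B cells (Igha, Jchain and Cd79a, the 3 present of 6 markers, Cd79a being near 0 in resident cells) summed to 1749 and 1689 CPM in chow resident cells and 139 and 102 CPM in HFD resident cells, and to 40600 and 66030 CPM against 8636 and 6897 CPM in monocytes. The 6 monocyte markers summed to 14450 and 18170 CPM in chow monocytes and to 26720 and 25340 CPM in HFD monocytes. In intermediate cells chow replicate 9 stood apart at 16690 CPM, against 405 CPM in chow replicate 11 and 141 and 88.0 CPM on HFD. Transcripts of epithelial cells (6 markers) summed to 564 CPM in the monocytes of HFD replicate 3, led by Reg3b at 215, Krt8 at 167 and Krt19 at 140 CPM, against 4.78 and 4.01 CPM in the chow mice and 4.47 CPM in HFD replicate 1. In resident cells they summed to 2.65 and 11.1 against 19.8 and 14.5 CPM. Without HFD replicate 3, Hspa1a in monocytes stood at -0.89 (edgeR adjusted p = 0.152). The part of this other RNA, or of other cell types within the gates, in the chaperone levels and stage comparisons was not tested.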

How the data were processed

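UMI counts of single colonic monocytes and macrophages from 2 chow and 2 HFD mice were analysed. The authors mapped reads by pseudo-alignment to Ensembl release 97, using Kallisto 0.46.0, and counted them with BUStools 0.39.2. Cells and genes of low quality or abundance and cells of other types were dropped by them, and the deposited values are raw UMI counts. How UMIs shared between genes were assigned is not given in the sources used here. The mouse was read from the cell names, and 11819 of 11820 genes were matched to GENCODE M21. Totals were 3832283 to 7947893 UMIs per mouse.

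UMIs were summed per mouse and stage, for stages with at least 20 cells in every mouse. A gene entered when its CPM passed 1 in 2 or more of the 4 sums and 5% or more of the cells held a UMI. Testing used edgeR (version 4.0.16), glmQLFit and glmQLFTest after TMM, and p-values were adjusted by Benjamini-Hochberg over all genes tested. DESeq2 (version 1.42.0) was an alternative, as were other cutoffs, no filter, no doublets (Scrublet in scanpy, version 1.11.5) and leaving out each mouse. The differential fit was tested on simulated data. Cells were thinned to 2000 UMIs for shares, high cells and correlations.

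The members, gene lists and tests were chosen with earlier results of these data known, so the p-values are not independent support. Named genes are the 9 members, the 10 other genes with the highest mean r with the summed inducible genes, listed genes called in a diet test, others closest to the threshold chosen after their values were seen, and the stage genes. A gene that this rule names is not reported here. Values in the text that come from cutoffs added after the data were seen are the C1q cutoff of 160, the set without Ly6c2 cells and the share of high cells without each mouse.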

Additional observations from a re-analysis of the deposited data

How the results depend on the processing

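No paired analysis was possible because the chow mice (replicates 9 and 11) and the HFD mice (replicates 1 and 3) share no replicate number. The cause of the differences below was not tested, except that a fit without 1 mouse has fewer sums and assumes that the lone mouse of a diet varies like the other diet. In resident cells, where 4 members were called, the number without each mouse ran from 0 to 8, it was 6 with the likelihood-ratio test, DESeq2, no filter on low counts or the C1q cutoff at 20, and 2 with the C1q cutoff at 160. It ran from 0 to 1 in monocytes and in intermediate cells, from 2 to 7 over all cells, and from 0 to 2 for the difference between monocytes and resident cells. That difference was called for 1 member with the likelihood-ratio test, 2 with no filter and 1 with the MHC II cutoff at 400. The transitional stage was not tested, and its alternatives were not run.

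The number of all genes called moved more. In monocytes (34) it was 98 with the likelihood-ratio test, 132 with no filter, 54 with the C1q cutoff at 20, 66 with the MHC II cutoff at 400 and 44 to 126 without 1 mouse. In intermediate cells (36) it was 142 with the likelihood-ratio test, 175 with no filter, 97 and 159 with the C1q cutoff at 20 and 80, 139 and 93 with the MHC II cutoff at 100 and 400 and 0 to 172 without 1 mouse, so the number of calls in this stage was unstable. In resident cells (514) it was 869 with the likelihood-ratio test, 858 with no filter, 97 with the C1q cutoff at 160 and 54 to 736 without 1 mouse. Over all cells (805) it was 1307, 1218 with no filter and 155 to 920 without 1 mouse. For the difference (89) it was 154 with the likelihood-ratio test and with no filter, 45 with DESeq2, 59 with the C1q cutoff at 80 and 20 to 93 without 1 mouse.

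No called member changed direction. Among members not called, leaving out 1 mouse at a time gave log2 fold changes on both sides of 0 for several. In monocytes these ran from -0.37 to 0.46 for Hspa8, -0.22 to 0.02 for Hsp90aa1, -0.78 to 0.10 for Hsp90ab1, -0.46 to 0.01 for Dnaja1, -0.38 to 2.70 for Hsph1 and -1.91 to 0.59 for Hspa1b. In intermediate cells they ran from -0.80 to 0.52 for Dnajb1, -0.71 to 0.33 for Hspa8, -0.33 to 0.91 for Hsp90aa1, -1.12 to 0.25 for Hsp90ab1, -0.37 to 0.18 for Hspa5 and -0.45 to 0.65 for Hspa1a. They ran from -0.95 to 0.14 for Hsp90ab1 in resident cells, and over all cells from -1.06 to 0.06 for Hsp90ab1 and -0.54 to 0.18 for Hspa8. The difference between monocytes and resident cells ran from -0.15 to 0.39 for Hsp90ab1 and -1.02 to 1.33 for Hspa1b. Without the filter, Hspa8 and Hsp90aa1 turned to 0.15 and 0.06 in monocytes, and Hspa8 and Hspa5 to 0.00 and 0.17 in intermediate cells. In intermediate cells Hspa1a, near 0, turned to -0.01 with DESeq2, with other size factors and without doublets and to -0.10 and -0.56 with the C1q cutoff at 20 and 80. Hsp90aa1 turned to -0.09 with the C1q cutoff at 80 and Hspa5 to 0.01 with the MHC II cutoff at 400. The difference for Hsp90ab1 turned to -0.02 with the MHC II cutoff at 100.

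The gap in high resident cells (-17.2 points) was -21.8 at 3 UMIs, -8.87 at 10 UMIs, -15.4 without thinning and -17.8 to -16.7 without 1 mouse. Without 1 mouse the log2 ratio of inducible to constitutive UMIs ran from -1.27 to -0.35, and without Hsp90aa1 it was -1.11.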
